A study of Arabidopsis thaliana with 4 samples.

Results

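Salicylic acid (SA) and N-hydroxypipecolic acid (NHP) are the pair of small molecules through which Arabidopsis leaves build up local and systemic immunity. The 10 genes described here make these molecules or control the genes that do. They were taken by name from the 32633 loci in the deposited tables, by a rule that has no threshold on a measured value, and all 10 were found. *ICS1* (AT1G74710), *EDS5* (AT4G39030) and *PBS3* (AT5G13320) act in SA synthesis, *CBP60G* (AT5G26920) and *SARD1* (AT1G73805) encode transcription factors of the CBP60 family, *EDS1* (AT3G48090), *PAD4* (AT3G52430) and *SAG101* (AT5G14930) encode lipase-like signaling proteins, and *ALD1* (AT2G13810) and *FMO1* (AT1G19250) act in NHP synthesis.

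In the textbook pathway, ICS1 converts chorismate to isochorismate in the plastid, EDS5 moves isochorismate to the cytosol, and PBS3 joins it to glutamate to give a conjugate that breaks down to SA. ALD1 is an aminotransferase that starts the conversion of lysine to pipecolic acid, and FMO1 hydroxylates pipecolic acid to NHP. CBP60G and SARD1 are partly redundant activators that bind the promoters of *ICS1*, *ALD1*, *FMO1* and other immune genes. EDS1 pairs with either PAD4 or SAG101, and these complexes act upstream of SA and feed back on it.

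RNA was sequenced from leaves of uninfected plants of 2 genotypes, grown for 3 weeks with 12 h of light and 12 h of dark per day. WT plants were Col-0, and *ldl1 ldl2* was made by crossing T-DNA insertion lines of *LDL1* and *LDL2* in the same background. *LDL1* and *LDL2* encode homologs of the human histone H3K4 demethylase LSD1. Each genotype had 2 biological replicates, numbered 1 and 2, and each of the 4 libraries gave 1 table of FPKM, a level scaled both to the length of the transcript and to the number of mapped fragments in the library.

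*LDL1* measured 4.37 and 5.001 FPKM in WT leaves against 4.44 and 4.09 in the *ldl1 ldl2* leaves, and *LDL2* measured 1.04 and 0.944 FPKM in WT leaves against 0.281 and 0.673 in the *ldl1 ldl2* leaves. A value summed over a gene carrying a T-DNA insertion does not check the genotype. The libraries stood apart by replicate number. Across genes, Pearson's r of log2(FPKM + 1) was 0.954 within replicate number 1 and 0.954 within replicate number 2, against 0.846 within WT and 0.915 within *ldl1 ldl2*. From replicate number 1 to 2, 7 of 9 clock genes differed by 2-fold or more, each in the same direction in both genotypes. *CCA1* and *LHY* were lower in replicate 2, and *PRR5*, *TOC1*, *GI*, *ELF4* and *LUX* were higher. The share of all genes tested that did so was not counted. All 4 leaf markers (*RBCS1A*, *LHCB1.3*, *LHCB2.1* and *RCA*) were at 2348 FPKM or more in every library, and the 3 seed markers were at 0 in all. The 5 floral markers summed to 0.602 (replicate 1) and 14.1 FPKM (replicate 2) in WT leaves, against 2.78 and 4.89 in the *ldl1 ldl2* leaves, and *AP1*, a gene of the floral meristem, was at 3.46 FPKM in WT replicate 2 and at 0 in the other 3 libraries. The 4 root markers summed to 0.161 and 6.14 FPKM in WT leaves against 1.03 and 3.15 in the *ldl1 ldl2* leaves, nearly all from *PYK10*, with *COBL9* and *EXPA7* at 0 in every library. WT replicate 2 is the library with the lowest value of many genes below, and the part of its floral and root transcripts and clock phase in those values was not tested. In whole leaves, fewer cells of a type and less RNA per cell cannot be told apart.

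The members fell into 3 patterns. *CBP60G*, *SARD1*, *EDS1*, *PAD4* and *SAG101* were above WT in *ldl1 ldl2* in both replicate numbers. *ICS1*, *EDS5* and *PBS3* were lower in *ldl1 ldl2* in replicate 1 and higher in replicate 2. *ALD1* and *FMO1* were at or near 0 in every library. The placing of *PBS3* and *EDS1* rested on small differences in replicate 1, with log2 ratios of -0.06 and 0.10. The 8 genes of the first and second patterns had a mean of at least 1 FPKM over the 4 libraries, the minimum for the test, as did 16905 loci in all, while *ALD1* and *FMO1* did not. Of all genes tested, 19.8% were higher in *ldl1 ldl2* in both replicate numbers and 31.0% were lower in both, against 5 and 0 of the 8 members tested. These shares depended on the scaling, since the median log2 ratio of all genes tested was 0.01 in replicate 1 and -0.10 in replicate 2. With median-ratio scaling these medians became 0.00 and 0.01, 27.0% of all genes tested were higher in both replicate numbers, and the same count of 5 members was. Both *ldl1 ldl2* libraries were above both WT libraries for the same 5 members, against 8.25% of all genes tested.

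**Figure D1:**
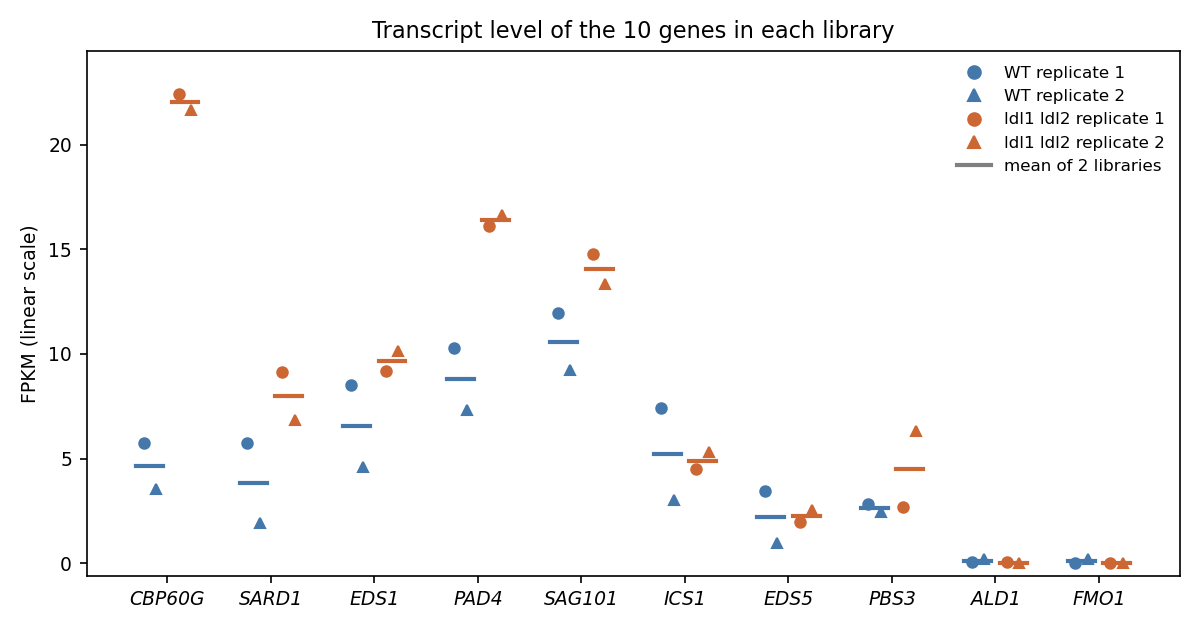
FPKM of each of the 10 genes (vertical axis, linear scale) in the 4 libraries, with blue for WT, orange for *ldl1 ldl2*, circles for replicate 1, triangles for replicate 2 and a bar at the mean of 2 libraries. *CBP60G* stands at 22.4 and 21.7 FPKM in *ldl1 ldl2* above 5.73 and 3.52 in WT plants, the groups of *ICS1*, *EDS5* and *PBS3* overlap, and *ALD1* and *FMO1* lie at the foot of the plot.

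*CBP60G* was the member with the greatest difference between the genotypes. It measured 5.73 (replicate 1) and 3.52 FPKM (replicate 2) in WT leaves, against 22.4 and 21.7 FPKM in the *ldl1 ldl2* leaves. The groups did not overlap, and the *ldl1 ldl2* replicates lay closer to each other than the WT replicates did. The mean of the *ldl1 ldl2* libraries was 22.04 ± 0.529 FPKM and that of the WT libraries 4.63 ± 1.56 FPKM (SD, n = 2). Within replicate numbers 1 and 2 the level in *ldl1 ldl2* was 3.91 and 6.15 times that in WT plants. On the log2(FPKM + 1) scale, where the change of a gene with low values is understated, the ratios were 1.80 and 2.33. *CBP60G* was the only member whose log2 ratio was 1 or more in both replicate numbers, as was that of 1.4% of all genes tested. Among all genes tested in a library, it stood at percentile 32.7 and 18.5 in the WT libraries and at percentile 69.1 and 67.8 in the *ldl1 ldl2* libraries. By level it ranked 6 of the 10 members in WT replicate 1 and 4 in WT replicate 2, but it had the highest level of the 10 in both *ldl1 ldl2* libraries. The pooled log2 fold change was 2.06 (standard error 0.32, unadjusted p = 0.00202, adjusted p = 1.00 from limma).

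None of the 8 members passed limma's adjusted p of 0.05, and neither did any of the 16905 genes tested, so that 0% were called. At an unadjusted p under 0.05 there were 394 genes, *CBP60G* and *PAD4* among them. For 1 gene in 2 libraries per genotype, the smallest two-sided p of an exact permutation test is 1 in 3. The limma fit used here had no term for the replicate number, so differences between replicate numbers counted as spread within a genotype. A fit with a replicate block is described at the end.

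*SARD1* differed in the same direction by a smaller amount. It measured 5.74 (replicate 1) and 1.90 FPKM (replicate 2) in WT leaves, against 9.16 and 6.84 FPKM in the *ldl1 ldl2* leaves. The groups did not overlap, but WT replicate 1 lay nearer to *ldl1 ldl2* replicate 2 than to WT replicate 2. The log2 ratios within replicate numbers 1 and 2 were 0.59 and 1.43, and the pooled log2 fold change was 1.01 (standard error 0.50, adjusted p = 1.00 from limma). It was 0.41 when WT replicate 2 was left out. In WT replicate 1 *SARD1* and *CBP60G* were almost level, at 5.74 and 5.73 FPKM, and in *ldl1 ldl2* replicates 1 and 2 *CBP60G* was above *SARD1* by more than the spread between the replicates of either gene. *SARD1* overlaps AT1G73790 on the opposite strand over 640 bases. That gene measured 23.6 and 17.4 FPKM in WT leaves against 28.3 and 21.7 in the *ldl1 ldl2* leaves, and whether the counting used strand is not given in the sources used here, so the level of *SARD1* is uncertain.

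Most listed genes that respond to touch were also higher in *ldl1 ldl2*, and all were lowest in the same library as the regulators. Of 6 such genes (*TCH2*, *TCH3*, *TCH4*, *CML37*, *CML38* and *ZAT12*), 5 were higher in both replicate numbers and 4 had a log2 ratio of 1 or more in both, against 19.8% and 1.4% of all genes tested. The exception was *TCH4*, at 943 (replicate 1) and 165 FPKM (replicate 2) in WT leaves against 831 and 671 in the *ldl1 ldl2* leaves. The 6 summed to 1539 (replicate 1) and 279 FPKM (replicate 2) in WT leaves, against 2080 and 1483 in the *ldl1 ldl2* leaves. All 6 were lowest in WT replicate 2, as were 21.2% of all genes tested. *CML38*, which encodes a calmodulin-like protein, measured 8.45 and 7.02 FPKM in WT leaves against 70.8 and 87.5 in the *ldl1 ldl2* leaves. The part of this difference in the levels of *CBP60G* and *SARD1* was not tested.

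The sequences upstream of both regulators are shown because these genes, of one family, differed in the size of their ratios. Each is the 250 bases before the annotated start of the gene in the RefSeq annotation of TAIR10.1, read 5′ to 3′ on the strand of the gene. Capitals mark TTGAC on either strand, the core of the W-box that WRKY factors bind. The *CBP60G* window (chr5:9475429-9475678, plus strand) lies before a gene that runs from 9475679 to 9478777, and the *SARD1* window (chr1:27749249-27749498, minus strand) before one that runs from 27744790 to 27749248.
*CBP60G*: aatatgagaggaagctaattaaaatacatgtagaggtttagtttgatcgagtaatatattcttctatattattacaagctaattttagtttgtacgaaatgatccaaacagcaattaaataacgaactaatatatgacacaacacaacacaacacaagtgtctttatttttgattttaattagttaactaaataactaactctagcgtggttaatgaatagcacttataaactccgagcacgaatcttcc
*SARD1*: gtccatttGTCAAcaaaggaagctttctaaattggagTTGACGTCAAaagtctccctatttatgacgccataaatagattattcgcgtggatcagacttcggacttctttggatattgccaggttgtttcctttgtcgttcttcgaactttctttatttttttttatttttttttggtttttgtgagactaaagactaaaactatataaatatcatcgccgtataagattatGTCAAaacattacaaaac
The *SARD1* window held 4 W-box cores, beginning 242, 213, 208 and 18 bases before the gene start, and those at 213 and 208 abut on opposite strands. It was the only member's window with CGCG, the core bound by CAMTA factors, or with TGACG, the core bound by TGA factors, and 2 of its 3 TGACG matches overlap the abutting W-box cores. The *CBP60G* window held none of the 3. Any link between these matches and the size of the ratios was not tested. Among the 16770 windows of the same length searched on both strands, 44.3% held TTGAC, 10.8% CGCG and 19.3% TGACG. Windows of 4 of the 10 members held TTGAC, which besides *SARD1* were those of *EDS5*, *EDS1* and *SAG101*. The *SAG101* match begins 177 bases before the gene start and lies within the neighboring gene AT5G14920, which is 114 bases from *SAG101*. No window of a member held the evening element AAATATCT, which 5.16% of all windows held.

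The *EDS1*, *PAD4* and *SAG101* group was higher in *ldl1 ldl2* in both replicate numbers, by less than *CBP60G*. *PAD4* measured 10.3 (replicate 1) and 7.31 FPKM (replicate 2) in WT leaves, against 16.1 and 16.7 FPKM in the *ldl1 ldl2* leaves. Both *ldl1 ldl2* values lay above both WT values and close to each other, with a mean of 16.4 ± 0.385 FPKM (SD, n = 2). The log2 ratios were 0.60 and 1.09, and the pooled log2 fold change was 0.84 (standard error 0.29, unadjusted p = 0.0391, adjusted p = 1.00 from limma).

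*SAG101* had the highest level of the 10 members in both WT libraries, at 12.0 and 9.23 FPKM, and was at 14.8 and 13.4 in *ldl1 ldl2*. The groups did not overlap, with a gap of little more than 1 FPKM. Its log2 ratios of 0.28 and 0.49 were the smallest in replicate 2 among the 8 members tested, and the pooled log2 fold change of 0.39 (standard error 0.28, adjusted p = 1.00 from limma) was 0.22 when WT replicate 2 was left out. *PAD4* was below *SAG101* in both WT libraries and above it in both *ldl1 ldl2* libraries, by less than the range of *PAD4* over the WT replicates in each library but *ldl1 ldl2* replicate 2.

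*EDS1* measured 8.50 (replicate 1) and 4.60 FPKM (replicate 2) in WT leaves, against 9.17 and 10.2 FPKM in the *ldl1 ldl2* leaves. WT replicate 1 and *ldl1 ldl2* replicate 1 were close, and the difference between the groups came mainly with WT replicate 2. The log2 ratios were 0.10 and 0.996, and the pooled log2 fold change of 0.55 (standard error 0.36, adjusted p = 1.00 from limma) was 0.16 without WT replicate 2. *EDS1* lies 138 bases from AT3G48080, a gene annotated as an alpha/beta-hydrolase superfamily protein, and the coding sequences are 82.03% identical over their alignment, so the level of *EDS1* depends on how reads shared with that gene were assigned. AT3G48080 measured 0.746 and 0.608 FPKM in WT leaves against 0.792 and 1.12 in the *ldl1 ldl2* leaves, below the minimum for the test.

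**Figure D2:**
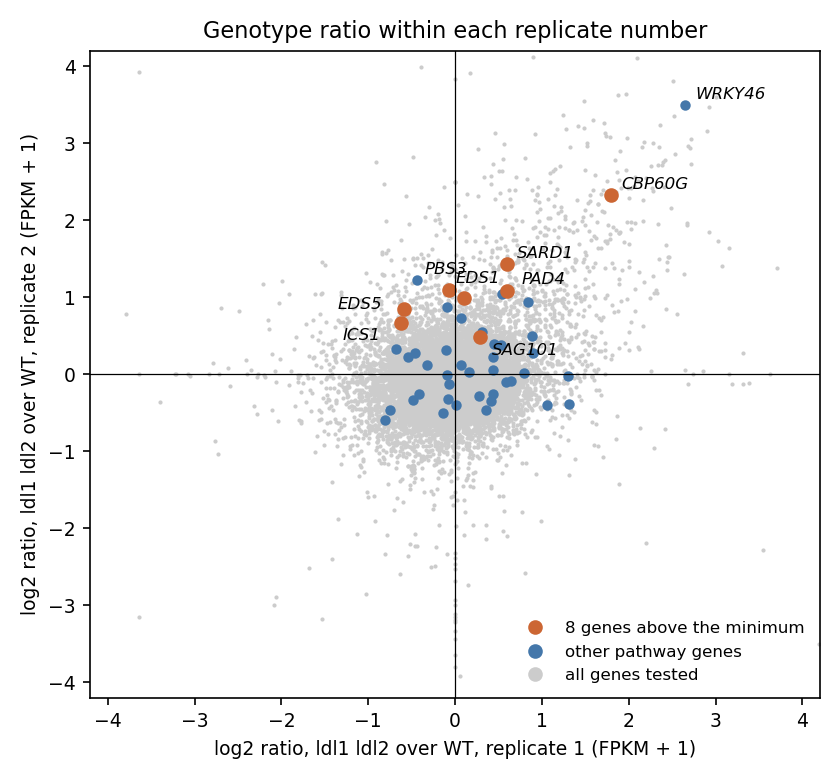
Log2 ratio of *ldl1 ldl2* to WT on the FPKM + 1 scale in replicate 1 (horizontal axis) and replicate 2 (vertical axis) for 16905 genes tested (grey), 39 other genes of the pathway (blue) and the 8 members tested (orange), with 39 genes outside the plotted range. *CBP60G* lies at 1.80 and 2.33, *ICS1*, *EDS5* and *PBS3* lie left of 0 on the horizontal axis and above 0 on the vertical axis, and the other 4 members lie above 0 on both.

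The genes of SA synthesis did not share the direction of their regulators in both replicate numbers. *ICS1* measured 7.43 (replicate 1) and 3.00 FPKM (replicate 2) in WT leaves, against 4.48 and 5.33 FPKM in the *ldl1 ldl2* leaves. WT replicate 1 was the highest library and WT replicate 2 the lowest, with both *ldl1 ldl2* libraries between them. The log2 ratios were -0.62 and 0.66, the mean of the *ldl1 ldl2* libraries was 4.90 ± 0.597 FPKM against 5.22 ± 3.13 FPKM for the WT libraries (SD, n = 2), and the pooled log2 fold change was 0.02 (standard error 0.45, adjusted p = 1.00 from limma).

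*EDS5* followed *ICS1*. It measured 3.45 (replicate 1) and 0.983 FPKM (replicate 2) in WT leaves, against 1.96 and 2.56 FPKM in the *ldl1 ldl2* leaves, again with both *ldl1 ldl2* values between the WT values. The log2 ratios were -0.59 and 0.84, and the pooled log2 fold change was 0.13 (standard error 0.48, adjusted p = 1.00 from limma). *EDS5* shares 213 bases with AT4G39040 on the opposite strand, which measured 101 and 66.4 FPKM in WT leaves against 74.7 and 58.8 in the *ldl1 ldl2* leaves, so its low level is uncertain to the extent that counting ignored strand.

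*PBS3* measured 2.83 (replicate 1) and 2.42 FPKM (replicate 2) in WT leaves, against 2.67 and 6.29 FPKM in the *ldl1 ldl2* leaves. A single library, *ldl1 ldl2* replicate 2, stood above the other 3, which lay close together. The log2 ratios were -0.06 and 1.09, and the pooled log2 fold change of 0.51 (standard error 0.43, adjusted p = 1.00 from limma) was 0.02 without *ldl1 ldl2* replicate 2. In that library *PBS3* was above *ICS1*, while in the other 3 it was below.

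*ALD1* measured 0.0486 (replicate 1) and 0.193 FPKM (replicate 2) in WT leaves, against 0.0539 and 0 FPKM in the *ldl1 ldl2* leaves. *FMO1* was at 0.208 FPKM in WT replicate 2 and listed at 0 in the other 3 libraries. The highest value of either gene came from WT replicate 2, the library in which the 8 other members were lowest. Neither gene reached the minimum for the test, and at these levels no difference between the genotypes was measurable. FPKM do not show the depth, and a listed 0 can also be a failed estimate.

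The sequences upstream of *ICS1*, *ALD1* and *FMO1* are shown because these are genes that CBP60G and SARD1 are known to bind. Capitals mark GAAATTT on either strand, the core reported for the binding of CBP60G and SARD1. The windows are chr1:28070045-28070294 (plus strand) before *ICS1*, chr2:5768167-5768416 (plus strand) before *ALD1* and chr1:6653196-6653445 (minus strand) before *FMO1*, taken as above from TAIR10.1.
*ICS1*: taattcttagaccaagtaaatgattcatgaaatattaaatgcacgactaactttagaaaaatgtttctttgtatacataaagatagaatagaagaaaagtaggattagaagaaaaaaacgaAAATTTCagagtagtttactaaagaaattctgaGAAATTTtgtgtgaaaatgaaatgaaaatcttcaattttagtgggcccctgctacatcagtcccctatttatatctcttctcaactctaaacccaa
*ALD1*: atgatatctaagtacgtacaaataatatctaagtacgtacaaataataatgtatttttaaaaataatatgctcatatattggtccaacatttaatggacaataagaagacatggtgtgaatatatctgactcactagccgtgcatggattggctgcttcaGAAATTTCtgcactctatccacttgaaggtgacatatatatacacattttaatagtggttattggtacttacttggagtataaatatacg
*FMO1*: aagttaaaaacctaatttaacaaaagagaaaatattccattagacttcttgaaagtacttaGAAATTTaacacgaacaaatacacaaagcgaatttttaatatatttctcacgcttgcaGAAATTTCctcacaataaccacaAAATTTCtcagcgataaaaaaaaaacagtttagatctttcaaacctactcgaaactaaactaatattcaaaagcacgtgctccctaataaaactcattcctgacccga
*ICS1* held 2 matches, beginning 129 and 96 bases before the gene start. *ALD1* held 2 that overlap on opposite strands in 1 run of GAAATTTC, and *FMO1* held 4, of which 2 overlap in the same way. These were the only 3 of the 10 members with the motif, which 12.8% of all 16770 windows held.

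Between replicates of WT plants, all 8 members tested were lower in replicate 2 than in replicate 1, which was not so in *ldl1 ldl2*. The share of all genes tested that were lower in WT replicate 2 than in WT replicate 1 was not counted. The median of all genes tested was 10.6 FPKM in WT replicate 1 and 12.4 in WT replicate 2. The WT values in replicate 1 were 1.17 times those in replicate 2 for *PBS3* and 3.51 times for *EDS5*, the lowest and highest of the 8. In *ldl1 ldl2*, 3 of the 8 (*CBP60G*, *SARD1* and *SAG101*) were lower in replicate 2 and 5 were higher. WT replicate 2 was the lowest library for all 8, against 21.2% of all genes tested, and with either rescaling tried it was again the lowest for 8. The log2 ratio between the genotypes, *ldl1 ldl2* over WT, was greater in replicate 2 for all 8, against 41.9% of all genes tested. Their median log2 ratio was 0.19 in replicate 1 and 1.04 in replicate 2. In replicate 1 alone, 5 of the 8 were higher in *ldl1 ldl2*, as were 51.0% of all genes tested, and in replicate 2 alone all 8 were, as were 37.5%. That all 8 were higher in replicate 2, and lower in WT replicate 2 than 1, follows from WT replicate 2 being lowest. These are not separate results. The difference between the ratios of the replicate numbers has no replicates of its own and was not tested.

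**Figure D3:**
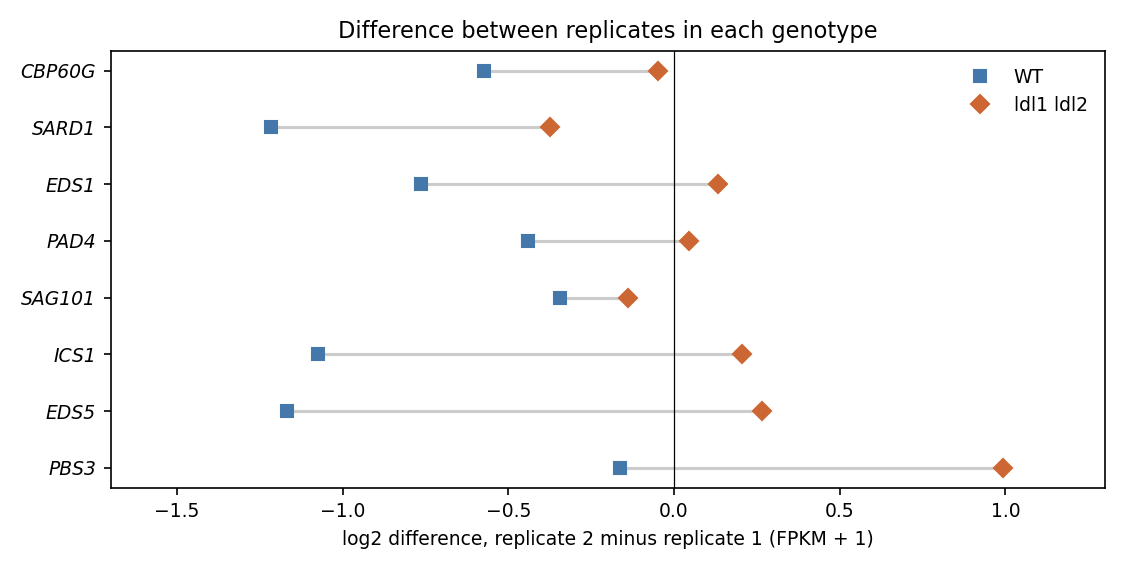
Difference of replicate 2 minus replicate 1 in log2(FPKM + 1) (horizontal axis) for the 8 members tested, in WT plants (blue squares) and *ldl1 ldl2* (orange diamonds). All 8 WT values are below 0, from -1.22 for *SARD1* to -0.16 for *PBS3*. Every *ldl1 ldl2* value lies to the right of the WT value of the same gene, which restates the greater log2 ratio in replicate 2.

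Of 48 other genes of the pathway, 39 reached the minimum for the test. In both replicate numbers 14 were higher in *ldl1 ldl2* and 8 were lower, against 19.8% and 31.0% of all genes tested. Of these, 1 was higher by 2-fold or more in both and 0 were lower by as much, against 1.4% and 0.148% of all genes tested. Their median log2 ratio was 0.28 in replicate 1 and 0.03 in replicate 2, and none passed limma's adjusted p of 0.05. The gene past 2-fold was *WRKY46*, a WRKY transcription factor gene of the list of factors reported to act on *ICS1*, *SARD1* or *CBP60G*. It measured 3.84 (replicate 1) and 1.64 FPKM (replicate 2) in WT leaves, against 29.3 and 28.8 FPKM in the *ldl1 ldl2* leaves, so that, as with *CBP60G*, the *ldl1 ldl2* replicates were nearly level and far above both WT replicates. Within replicate numbers 1 and 2 its level in *ldl1 ldl2* was 7.62 and 17.5 times that in WT plants, and its pooled log2 fold change was 3.07 (standard error 0.39, unadjusted p = 8.95e-04, adjusted p = 1.00 from limma). Of the 14 factors on that list, 5 were higher in both replicate numbers and 3 lower.

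Among the genes beside EDS1, all 5 tested were higher in *ldl1 ldl2* in both replicate numbers, against the 19.8% of all genes tested, with median log2 ratios of 0.44 and 0.27. They were *ADR1*, *ADR1-L1* and *ADR1-L2*, which encode helper immune receptors, and AT5G66900 and AT5G66910, annotated as disease resistance proteins of the CC-NBS-LRR class. AT5G66900 was nearly level, with log2 ratios of 0.15 and 0.03, and that of AT5G66910 was 0.05 in replicate 2. The groups of *ADR1* and AT5G66910 overlapped. *ADR1-L2* measured 18.3 (replicate 1) and 12.02 FPKM (replicate 2) in WT leaves, against 33.6 and 24.0 FPKM in the *ldl1 ldl2* leaves, without overlap, and *ADR1-L1* measured 23.0 and 29.6 FPKM in WT leaves against 43.5 and 36.02 in the *ldl1 ldl2* leaves. The pooled log2 fold changes were 0.89 (standard error 0.35) and 0.58 (standard error 0.30), and neither passed limma (adjusted p = 1.00 for each).

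Most genes that modify SA were below the minimum, which 4 of 12 reached. Of these, *S5H*, which encodes a salicylate 5-hydroxylase, measured 12.3 (replicate 1) and 9.11 FPKM (replicate 2) in WT leaves, against 18.4 and 19.9 FPKM in the *ldl1 ldl2* leaves. Its groups did not overlap, its log2 ratios were 0.54 and 1.05 and its unadjusted p was 0.0454 (adjusted p = 1.00 from limma). The other 3 tested had opposite signs in the replicate numbers. In the NHP pathway, *LHT1*, which encodes an amino acid transporter, measured 12.7 and 14.3 FPKM in WT leaves against 24.3 and 20.6 in the *ldl1 ldl2* leaves, again without overlap, while the other 2 genes tested had opposite signs.

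The other SA synthesis genes did not share one direction. Of 7, 1 was higher and 3 were lower in *ldl1 ldl2* in both replicate numbers, against 19.8% and 31.0% of all genes tested. Their median log2 ratios were -0.49 and -0.28. The 3 lower genes encode phenylalanine ammonia-lyases, the entry enzymes of the other route to SA. *PAL1* measured 20.7 and 12.7 FPKM in WT leaves against 11.4 and 8.08 in the *ldl1 ldl2* leaves, without overlap. *PAL4* measured 2.24 and 2.39 FPKM in WT leaves against 0.931 and 1.46 in the *ldl1 ldl2* leaves, also without overlap. The groups of *PAL3* overlapped, at 12.2 and 8.32 FPKM in WT leaves against 8.42 and 6.38 in the *ldl1 ldl2* leaves. The share of all genes tested with both *ldl1 ldl2* libraries below both WT libraries was not counted. The pooled log2 fold changes of *PAL1* and *PAL4* were -0.70 (standard error 0.37, unadjusted p = 0.124 from limma) and -0.60 (standard error 0.29, unadjusted p = 0.103 from limma). *PAL2* was the gene that was higher, with 24.3 and 12.9 FPKM in WT leaves against 33.4 and 17.3 in the *ldl1 ldl2* leaves. *ICS2*, whose coding sequence is 71.2% identical to that of *ICS1* over the alignment, had the signs of *ICS1*, with log2 ratios of -0.54 and 0.22. Among 6 other genes annotated as calmodulin-binding proteins of the CBP60 family, 1 was higher and 2 were lower in both replicate numbers. Of all genes tested, 19.8% and 31.0% were. The median log2 ratios of the 6 were 0.18 and -0.11. None had a log2 ratio of 1 or more in both as *CBP60G* did, against 1.4% of all genes tested.

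**Figure D4:**
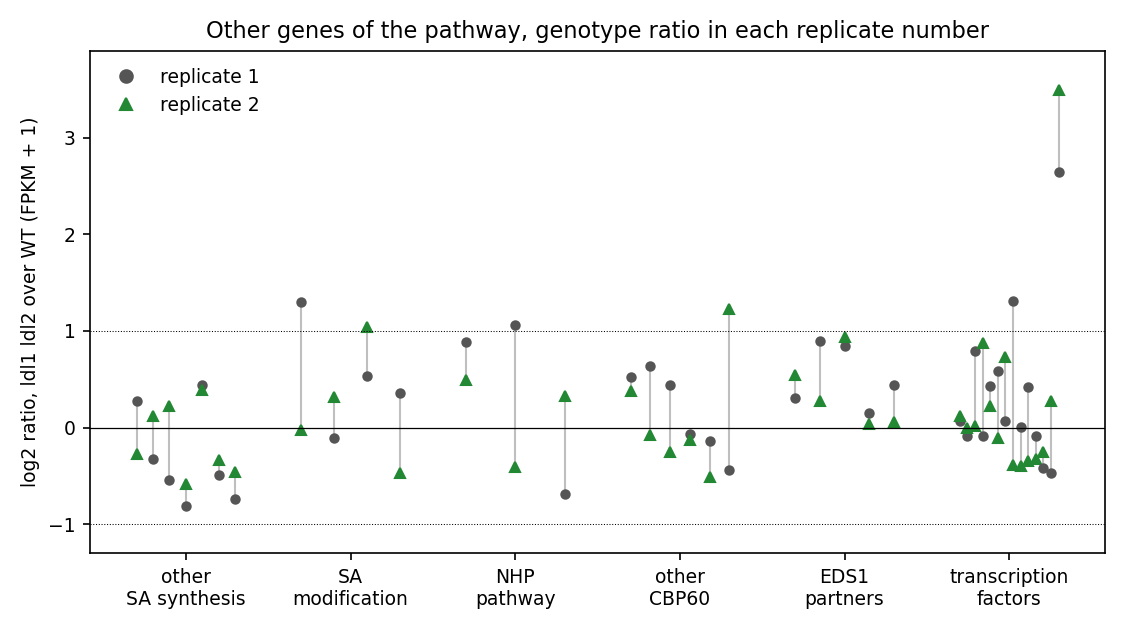
Log2 ratio of *ldl1 ldl2* to WT on the FPKM + 1 scale (vertical axis) in replicate 1 (grey circles) and replicate 2 (green triangles) for the 39 other pathway genes tested, in 6 groups, with a line joining the values of each gene and dotted lines at 2-fold. *WRKY46* stands alone above 2 in both replicates, and the 5 genes beside EDS1 have both values above 0.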

How the data were processed

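Leaf RNA of uninfected plants was sequenced in 4 libraries, 2 each for WT and *ldl1 ldl2*. The authors aligned 100 bp paired-end reads of stranded libraries with TopHat2 and Bowtie2 and deposited FPKM per locus, estimated by Cufflinks on the TAIR10 gene models for each library. The submitters' processing notes name Trimmomatic 0.33. Versions of the others were not given in the sources used. FPKM hold no depth, so no count test was run.

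The comparison used limma 3.58.1 (R 4.3.3) on log2(FPKM + 1), for loci whose mean FPKM was 1 or more, with a mean-variance trend, two-sided, with Benjamini-Hochberg adjustment at 0.05 over all loci tested. The fit was run on simulated data only as a check of the code. Those data held no difference between replicate numbers, unlike the libraries here, so they do not show the power of the fit. Log2 ratios were taken within each replicate number. Other pathway genes were named if at least 2-fold in one direction in both replicate numbers, then by smallest p. *PAL2*, *ICS2*, *CML38* and AT3G48080 were chosen after their values were seen. Members and lists were chosen with earlier results of these data known. The labels do not say that biological replicates were separate plantings, so p-values measure only the spread between these libraries. Positions, names and sequences came from RefSeq TAIR10.1.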

Additional observations from a re-analysis of the deposited data

How the results depend on the processing

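The log2 fold changes of the 8 members tested were recomputed in 78 ways. Of these, 73 kept their direction and their side of limma's threshold and 1 passed it. The other 4, each without a library numbered 2, reversed, with the log2 fold change of *ICS1* at -0.52 when WT replicate 2 was left out and at -0.08 when *ldl1 ldl2* replicate 2 was, and that of *EDS5* at -0.46 and -0.01. Without each library in turn it ranged from -0.52 to 0.56 for *ICS1*, from -0.46 to 0.71 for *EDS5*, from 0.41 to 1.62 for *SARD1* and from 1.78 to 2.35 for *CBP60G*. For 7 other pathway genes, 68 of 69 kept both and 1 passed the threshold.

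With a replicate block, limma called 348 genes, 311 higher and 37 lower. *CBP60G* (adjusted p = 5.18e-04) and *WRKY46* (adjusted p = 7.12e-05) were among them, as were the touch genes *CML37*, *CML38*, *ZAT12* and *TCH3*. The touch genes *TCH2* (adjusted p = 0.0847 from limma) and *TCH4* (adjusted p = 0.448 from limma) were not. No other member was called, *SARD1* having an adjusted p of 0.0908 and *PAD4* of 0.132. The correlation across genes between the genotypes' replicate differences was 0.726, so libraries of the same number were alike in expression. No label says what they shared, and there were only 2 pairs.

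Without each library in turn, limma called 0 to 3 genes. The pair that was then left gave 545 genes at least 2-fold higher in either case, 229 to 389 at least 2-fold lower, and 6 to 8 members higher, where the sixth in replicate 1 was *ALD1*, at 0.0486 and 0.0539 FPKM. Genes at least 2-fold lower in both replicate numbers numbered 87 with a pseudocount of 0.1 and 16 with a mean of at least 5 FPKM, against 25. The 5 and 8 members with separate groups and with their lowest value in WT replicate 2 stayed 5 and 8 under both rescalings, which were chosen for these counts after seeing the data. The unknown depth limits all values of a few FPKM or less.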
